A study of Mus musculus with 9 samples.

Results

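Immunoglobulin heavy and light chain transcripts were measured by 71 of the 12422 probe sets that are not controls on an Affymetrix mouse expression array. A probe set was counted when any of its gene symbols in the array's probe table began with Igha, Ighd, Ighe, Ighg, Ighj, Ighm or Ighv, with Igkc, Igkj or Igkv, or with Iglc, Iglj or Iglv; Ighmbp2, which is no antibody gene, was left out. The heavy chain had 36 of them, the kappa light chain 33 and the lambda light chain 2. Of the 71, 59 carried 1 symbol and 12 carried several, 34 distinct symbols in all.

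Lung total RNA of C57BL6 mice from an ovalbumin (OVA) asthma model was hybridised to 9 arrays, 3 in each of 3 groups. The saline group was challenged with saline, the OVA group with ovalbumin, the egg-white protein used as allergen, and the agonist group with ovalbumin together with an agonist of EP3, a receptor for prostaglandin E. A time of 24 h stands in the titles of both ovalbumin groups. The sources used here do not give the age and sex of the mice, the sensitisation schedule, or the agonist's name, dose and timing. Nothing in the labels tells whether the arrays of a group come from separate mice, so the p-values measure only the spread between these samples, which may be technical.

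An antibody is built from paired heavy and light chains. Each chain has a variable region, joined from V, J and, in heavy chains, D segments in the DNA of a developing B cell, and a constant region. The heavy constant region sets the isotype: Ighm encodes that of IgM, Ighd of IgD, Ighg3 of IgG3 and Igha of IgA, the antibody of mucosal surfaces. Plasma cells, the antibody-secreting descendants of B cells, hold very large amounts of these transcripts, so probe sets of this family report strongly on such cells in a tissue. A probe set reads a short stretch of sequence, and the suffix of its ID tells how particular that stretch was at design. IDs ending in _f_at hold probes shared by a family of similar sequences, those in _s_at and _g_at match several related transcripts, and those in _r_at were chosen under relaxed rules.

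The annotation of these probe sets has limits that touch every isotype statement. V segments are near-identical copies of each other, and a rearranged chain carries a V segment and a constant region on 1 transcript. A single symbol such as Ighm was attached to 16 probe sets and Ighg3 to 7, and a probe set with 1 of these symbols may read V sequence of an antibody of another isotype. Names below are those of the probe table and can be old; values belong to the probe set, and levels are not compared between probe sets. The symbols Ighe and Ighg1, of IgE and IgG1, were carried by no member.

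Intensities were scaled to a common array level, and 44.7 served as detection limit (the 40th percentile of all scaled values). On single arrays 59.6% to 60.6% of all probe sets exceeded it. Lung genes were bright on every array. Sftpc, the surfactant protein C of alveolar type 2 cells, read 10140 to 14980, Scgb1a1, secreted by club cells, 8739 to 13250, and Ager, of alveolar type 1 cells, 3439 to 4862. Of the 71 members, 59 exceeded the limit on at least 3 arrays and were tested among 7920 probe sets. The 12 others all had the plain suffix _at, and 9 of them exceeded the limit on no array.

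Before any comparison, 1 array of the agonist group stood apart in these genes. Relative to the mean of the saline arrays, the median of the 59 tested members lay at 0.25, 0.16 and −0.49 (log2) on saline arrays 1, 2 and 3. It lay at 3.16, 2.7 and 2.43 on OVA arrays 1, 2 and 3, and at −0.17, −0.16 and 1.83 on agonist arrays 1, 2 and 3. Agonist arrays 1 and 2 therefore lay among the saline arrays, and agonist array 3 lay between saline and OVA. The medians of all 7920 tested probe sets stayed between −0.10 and 0.01 on the same 9 arrays.

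**Figure D1:**
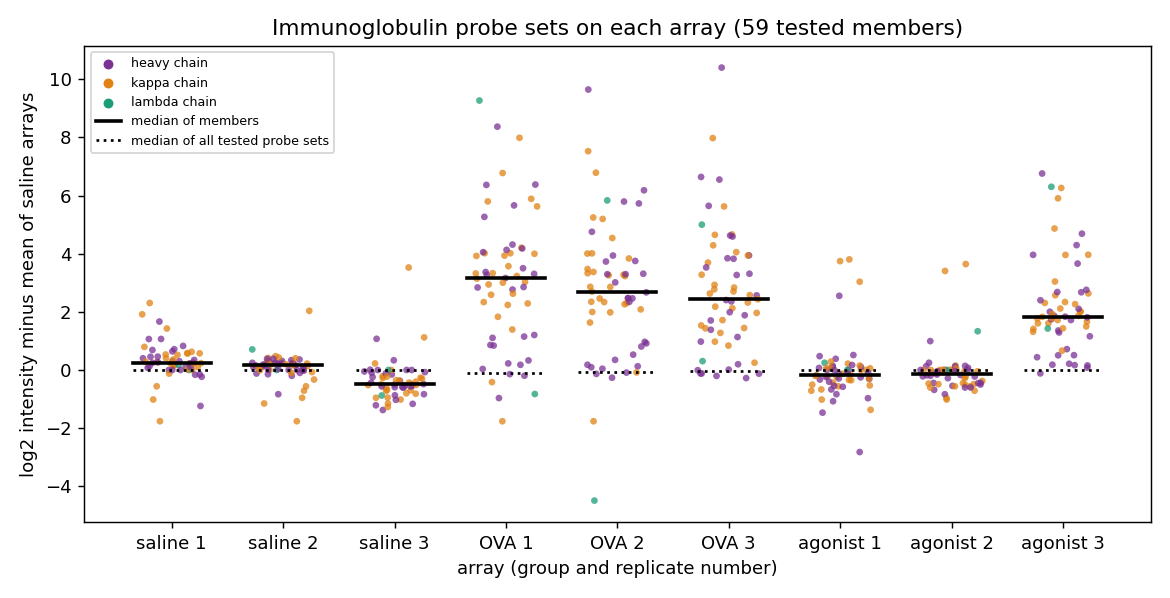
Log2 scaled intensity of each of the 59 tested immunoglobulin probe sets (points, coloured by chain) on each of the 9 arrays (x axis), minus that probe set's mean over the saline arrays; solid bars are the medians of the members and dotted bars those of all tested probe sets. The member medians are 2.43 to 3.16 on the OVA arrays, −0.17 and −0.16 on agonist arrays 1 and 2, and 1.83 on agonist array 3.

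The comparison of OVA with saline asks how allergen challenge altered antibody transcripts in the lung. Of the 59 tested probe sets 32 rose, 0 fell and 27 did not pass limma's test at an adjusted p of 0.05. Over all 7920 tested probe sets 9.49% passed, 5.08% higher and 4.42% lower. The median log2 change of the members was 2.64 (2.41 with values held at the detection limit), against −0.08 over all tested probe sets, and 2.81, 2.5 and 2.82 within replicate numbers 1, 2 and 3. Members were 0.745% of the tested probe sets and 7.96% of the 402 rises. In bulk tissue, more antibody-producing cells and more antibody RNA per cell cannot be told apart.

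At an unadjusted p under 0.05, 47 members were higher and 0 lower in OVA lung, where 12.1% of all tested probe sets were higher and 17% lower. The arrays of both groups did not overlap, with OVA higher, for 47 members, against 15.5% of all tested probe sets. A difference of at least 2-fold upward was likewise seen in 47 members and in 4.68% of all.

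The filter shaped these counts. On all 3 saline arrays 14 tested members lay at or below the detection limit, so they entered the test through the challenged arrays. The 32 members above the limit on every saline array give 17 rises and a median log2 change of 2.39. The number of rises also hung on which arrays entered the fit: it was 5, 3 and 3 without saline arrays 1, 2 and 3, 1, 4 and 20 without OVA arrays 1, 2 and 3, and 44 of 58 without agonist array 3. Over all tested probe sets the calls in either direction moved too, from 752 with all arrays. They numbered 150, 138 and 126 without saline arrays 1, 2 and 3, and 80, 103 and 596 without OVA arrays 1, 2 and 3. Without agonist array 3 they numbered 857. The mixed kappa probe set 97566_f_at was called in every one of these fits with an array left out, and it was the sole member for which this held, so each of the other rises named here is lost without at least 1 array.

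Family-wide probe sets held most of the rises. Among the 32 members with the suffix _f_at 27 rose, and among the 27 other tested members 5 rose. Of the 637 tested _f_at probe sets that are no members, 9.58% passed in either direction. The 31 members with plain _at IDs gave 5 rises of 19 tested. The calls thus lie mainly in probe sets that read shared sequence and do not resolve single segments.

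All 3 probe sets of Igha, the IgA constant region, rose in OVA lung. Probe set 100583_at gave 586, 636 and 413 on saline arrays 1, 2 and 3, 1153, 1049 and 1978 on the OVA arrays, and 575, 393 and 567 on the agonist arrays. Every OVA array lay above every array of the other groups, and OVA array 3 was the brightest. The rise from saline to OVA was 2.5-fold (log2 change 1.32 ± 0.29 SE, limma adjusted p = 0.0335). Probe set 161486_f_at read 45.9, 41.8 and 39.7 in saline, 93.9, 74.2 and 138 in OVA, and 45.5, 37.3 and 39.1 in agonist lung, a rise of 1.22 ± 0.21 (adjusted p = 0.0212).

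Probe set 97009_f_at, also Igha, was below 0 on all saline arrays (−15.0, −20.2 and −32.4) and read 119, 83.7 and 155 on the OVA arrays. Its agonist values were −25.5, −29.5 and 39.2. Only the OVA arrays exceeded the detection limit, and OVA lay at least 2.59-fold above it (adjusted p = 0.0203). This set thus entered the test through the group where it was high. Where every array of a group lies below the floor of 3.10, as in saline here, that group shows no spread on the log2 scale, and the p-value comes out small.

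Agonist array 3 stood apart in most members, but in 1 of the 3 Igha sets alone, 97009_f_at, where it exceeded the other agonist arrays and saline while staying below the detection limit. On that array 56 of 59 members were higher than on both other agonist arrays, and 53 of 59 exceeded all saline arrays, where 36.7% and 28.2% of all tested probe sets did so. The 6 that did not exceed the saline arrays included Igha sets 100583_at and 161486_f_at. The others were 101346_at and 99420_at (Ighm), 98974_at (Ighv14-2) and 99421_at (several heavy chain symbols). These 6 were singled out after their values were seen.

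Probe sets annotated to Ighm split into sets that rose and sets that showed little difference. Of 16, 11 were tested: 5 rose, 0 fell and 6 did not pass. Probe set 93583_s_at read 1177, 1253 and 944 in saline, 8071, 7110 and 2452 in OVA and 913, 1232 and 4797 in agonist lung. OVA arrays 1 and 2 were far above saline, OVA array 3 less so, and agonist array 3 lay above OVA array 3. With that spread the 4.66-fold difference between OVA and saline did not pass (log2 change 2.22 ± 0.67, adjusted p = 0.0769).

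Probe set 101870_at, annotated to Ighm, rose from saline values far below the detection limit. It read −114, −143 and −156 in saline, 1026, 2487 and 4198 in OVA, and −119, −94.0 and 336 in agonist lung. OVA was at least 49.3-fold above the detection limit (adjusted p = 0.0223), and OVA array 3 was the brightest here but the dimmest OVA array in 93583_s_at. Agonist array 3 was the only array outside the OVA group with a signal above the limit.

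A further 4 Ighm sets rose. Probe set 101871_f_at went from 33.6, 17.2 and 7.16 in saline to 291, 246 and 387 in OVA lung, a difference of at least 6.77-fold (adjusted p = 0.0115), with 17.7, 32.0 and 53.8 in agonist lung. Probe set 100377_f_at lay below the limit in saline (−5.22 to 4.25) and at 287, 183 and 323 in OVA, at least 5.74-fold higher (adjusted p = 0.0161). The others, 100362_f_at and 97577_f_at, rose 6.66-fold (adjusted p = 0.0280) and 6.64-fold (adjusted p = 0.0447). In each, every OVA array lay above every saline and agonist array.

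Of the Ighm sets that did not pass, 99420_at followed the pattern of Igha 100583_at rather than that of 93583_s_at. It read 559, 523 and 292 in saline, 1014, 831 and 1746 in OVA and 612, 290 and 494 in agonist lung (log2 change 1.37 ± 0.40, adjusted p = 0.0694). Probe set 101745_f_at had a log2 difference of 2.55, or 2.08 held at the limit (adjusted p = 0.0768), without overlap between OVA and saline. In 93584_at, 101346_at and 102159_at the groups overlapped, with log2 differences of 0.42, 0.30 and 0.11 (adjusted p = 0.551, 0.451 and 0.821). The 5 untested Ighm sets, 101276_at, 101749_at, 96966_at, 97568_at and 99885_at, lay between −60.1 and 32.2 on all arrays.

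Ighg3, the IgG3 constant region, was carried by 7 probe sets, of which 6 were tested and 4 rose. Probe set 93927_f_at read 109, 84.6 and 60.9 in saline, 934, 810 and 1170 in OVA, and 76.2, 51.4 and 300 in agonist lung. OVA and saline did not overlap, and the rise was 11.6-fold (log2 change 3.54 ± 0.60, adjusted p = 0.0198). Probe set 97574_f_at rose from 90.9, 66.9 and 22.1 to 851, 690 and 1264, a log2 change of 4.14 (3.80 with values held at the detection limit, adjusted p = 0.0245). Probe set 97008_f_at rose 9.26-fold (adjusted p = 0.0224), and 101752_f_at at least 8.09-fold from saline values below the limit (adjusted p = 0.0341).

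The other 3 Ighg3 sets behaved differently. Probe set 102721_at read 148, 162 and 219 in saline, 158, 145 and 160 in OVA, and 141, 149 and 389 in agonist lung. Its OVA arrays lay within the range of the other groups, its log2 difference between OVA and saline was −0.18 ± 0.37 (adjusted p = 0.788), and its highest value was on agonist array 3. Probe set 102722_g_at, with a log2 difference of 0.12, or −0.03 held at the limit (adjusted p = 0.944), also had its highest value there, at 237. Probe set 102723_at was below 0 on every array and was not tested. Sets under 1 symbol thus gave different pictures, and the table does not tell which of them read the IgG3 constant region itself.

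Ighd, the IgD constant region carried by naive B cells, had 1 probe set, 101157_at. It lay below 0 on 8 arrays and at 54.5 on OVA array 3, and was not tested.

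Heavy chain V segments had 6 probe sets under a single symbol, and 3 rose. Probe set 96970_at, Ighv3-6, lay below 0 on the saline arrays and at 256, 225 and 47.6 on the OVA arrays, with −7.23, −3.77 and 60.9 in agonist lung. OVA was at least 3.13-fold above the limit (adjusted p = 0.0323), with OVA array 3 below agonist array 3. Probe set 97563_f_at, Ighv1-54, read 154, 129 and 48.5 in saline and 1735, 971 and 952 in OVA lung, 11.8-fold higher (adjusted p = 0.0363). Probe set 98765_f_at, Ighv5-12, read 162, 153 and 140 in saline and 1465, 769 and 395 in OVA lung, 5.05-fold higher (adjusted p = 0.0490).

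The 3 probe sets of Ighv14-2, namely 92740_at, 92741_g_at and 98974_at, had log2 differences of 0.13, 0.10 and −0.06 between OVA and saline (adjusted p = 0.862, 0.947 and 0.910). In 92740_at the saline arrays read 168, 129 and 83.7, the OVA arrays 153, 138 and 112, and the agonist arrays 62.3, 145 and 174. All 3 groups overlapped.

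Among the 3 probe sets with several heavy chain symbols, 92470_f_at rose from 130, 88.0 and 43.2 to 1572, 1049 and 912 (log2 change 3.86 ± 0.83, adjusted p = 0.0326). Probe set 97575_f_at, whose symbols are all of constant regions, rose from 29.3, 22.7 and 23.9 to 180, 250 and 361, at least 5.66-fold (adjusted p = 0.0249). The third, 99421_at, was bright on every array, at 1020 to 1364. Its log2 difference was −0.16 ± 0.13 (adjusted p = 0.420), and its OVA arrays overlapped with saline.

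Kappa, the light chain of most mouse antibodies, had 28 tested probe sets, of which 15 rose and 0 fell. The median log2 change was 2.69, against 2.55 for the 29 tested heavy chain sets, of which 17 rose. Every kappa set had a difference above 0, and in 26 of 28 the OVA and saline arrays did not overlap. Kappa and heavy chain sets thus gave similar medians, and the difference between the chains was not tested.

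Within kappa, 23 of the 28 were V sets. Of the 20 with 1 symbol 11 rose. The other 3, which join a V segment to the locus symbol Igk or to another V segment, did not pass. Probe set 102156_f_at, Igkv6-23, read 2302, 1892 and 1585 in saline, 6770, 7529 and 6257 in OVA, and 1982, 1918 and 6031 in agonist lung. OVA exceeded saline on every array by a rise of 3.59-fold (log2 change 1.84 ± 0.42, adjusted p = 0.0364), and agonist array 3 lay just under the lowest OVA array.

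Sets of the Igkv4 family, a large group of similar V segments, rose as well. Probe set 102076_at, Igkv4-68, read 117, 90.6 and 49.8 in saline, 1226, 1154 and 1342 in OVA and 63.2, 77.3 and 408 in agonist lung. The OVA arrays lay close together, and the rise was 15.3-fold (log2 change 3.94 ± 0.67, adjusted p = 0.0200). Probe set 101718_f_at, Igkv4-70, rose 4.72-fold, from 309, 303 and 230 to 1359, 1109 and 1500 (adjusted p = 0.0192). Probe sets 94725_f_at, Igkv4-91, and 101751_f_at, Igkv4-59, rose by 2.22 and 2.64 on the log2 scale (adjusted p = 0.0372 and 0.0326).

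Igkv15-103 was read by 2 sets that both rose from below the limit in saline. Probe set 101330_f_at lay at −8.50, −33.6 and −44.2 in saline and at 184, 50.04 and 78.6 in OVA lung, at least 2.01-fold above the limit (adjusted p = 0.0149). Probe set 101329_f_at reached 283, 48.7 and 128 with OVA, at least 2.7-fold above it (adjusted p = 0.0291). Only the OVA arrays exceeded the limit in either set, so both entered the test through the group where they were high. Both calls were lost with the floor at the 40th percentile and with the replicate block. Neither set could be tested with any OVA array left out. The call of 101329_f_at was also lost with no floor and with no filter. OVA array 1 was the brightest in both.

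Igkv14-111 had 3 sets that did not agree. Probe set 100682_f_at rose 12.6-fold, from 127, 101 and 48.5 to 1575, 950 and 829 (adjusted p = 0.0304), and 96974_at rose 6.22-fold (adjusted p = 0.0452). The relaxed set 100683_r_at ran from −115 to 121 in saline, from −29.7 to 136 in OVA and from 132 to 164 in agonist lung, with no call (log2 difference 0.06 ± 1.83, adjusted p = 0.988). Of the remaining single V sets, 93904_f_at (Igkv9-120) and 101331_f_at (Igkv6-14) rose 8.68-fold and 7.50-fold (adjusted p = 0.0249 and 0.0469).

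The 3 sets of Igkv10-96 had large differences that did not pass. Probe set 102155_f_at read −3.95, 25.7 and −36.5 in saline, 688, 693 and 123 in OVA and −13.5, −28.3 and 183 in agonist lung (adjusted p = 0.0673). OVA array 3 lay well below OVA arrays 1 and 2, and below agonist array 3. Sets 102157_f_at and 99369_f_at were also lowest on OVA array 3 among the OVA arrays, at 660, 693 and 168 and at 620, 777 and 152 (adjusted p = 0.0530 and 0.0665).

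Probe sets that list the kappa constant gene together with V segments gave 4 rises of 5. Probe set 97566_f_at, whose call held with each array left out, read 215, 244 and 183 in saline, 1073, 1019 and 1316 in OVA, and 173, 149 and 337 in agonist lung. The OVA arrays stood clear of both other groups, a rise of 5.32-fold (log2 change 2.41 ± 0.30, adjusted p = 0.00949). Sets 102585_f_at and 101640_f_at rose 6.71-fold and 5.83-fold (adjusted p = 0.0270 and 0.0226).

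Probe set 97567_f_at, the fourth, was at 34.0, −45.8 and −131 in saline and at 1749, 1270 and 1736 in OVA lung, at least 35.1-fold above the limit (adjusted p = 0.0114). It also read 96.2, 73.1 and 529 in agonist lung, above every saline array, with an adjusted p of 0.383 between agonist and saline. Probe set 93086_at read 3187, 3216 and 1940 in saline, 7112, 8398 and 6564 in OVA, and 2819, 2797 and 7226 in agonist lung. Its difference of 1.43 ± 0.38 did not pass (adjusted p = 0.0573), and agonist array 3 lay within the OVA range.

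Lambda, the minor light chain of the mouse, had 2 probe sets, neither of which passed. Probe set 93638_s_at, listing a lambda constant and V gene, was below 0 on the saline arrays. On the OVA arrays it read 1914, 177 and 99.3, and in agonist lung −11.1, −13.1 and 245. OVA lay at least 7.22-fold above the limit (adjusted p = 0.0564), with OVA array 1 far above the others. Probe set 93639_r_at, Iglc1, overlapped between groups (log2 difference −1.67 ± 1.13, or −0.41 held at the limit, adjusted p = 0.367).

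**Figure D2:**
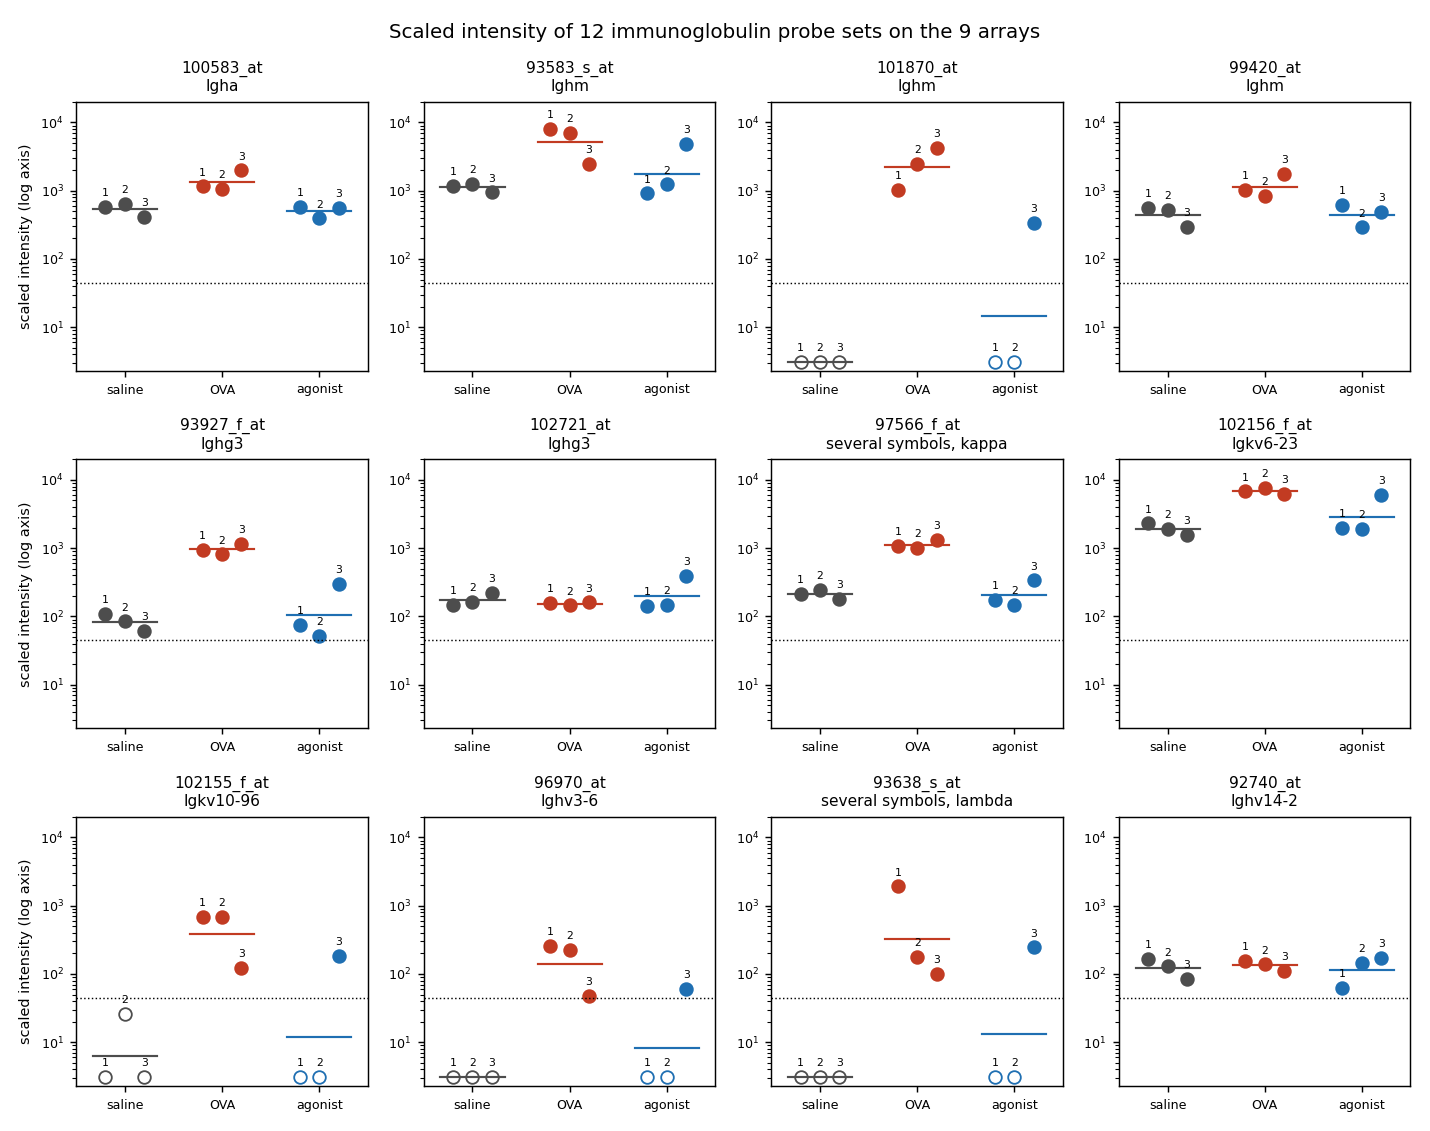
Scaled intensity (log axis) of 12 immunoglobulin probe sets on the saline, OVA and agonist arrays, numbered by replicate; horizontal bars are geometric means, the dotted line is the detection limit of 44.7, open circles lie at or below it, and values under the floor of 3.10 are drawn at the floor. In 100583_at (Igha) all agonist arrays sit with saline, while in 93583_s_at (Ighm) and 102156_f_at (Igkv6-23) agonist array 3 sits with the OVA arrays, at 4797 and 6031.

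The OVA arrays differed among themselves, and not in 1 direction for all classes. All 3 Igha sets and all 6 tested Ighg3 sets were higher on OVA array 3 than on OVA arrays 1 and 2, as were 36.9% of all tested probe sets. All 6 heavy V sets and 12 of the 23 kappa V sets were lowest there, as were 29.4% of all. The heavy chain as a whole was divided, with 15 of 29 sets highest and 13 lowest on that array. On OVA array 3, 12 of 59 members were at least 2-fold below the mean of the other OVA arrays and 5 were at least 2-fold above it. Over all tested probe sets these shares were 2.46% and 2.13%. The median difference of OVA array 3 from the mean of OVA arrays 1 and 2 was 0.73 (log2) for Igha, 0.58 for Ighg3, −0.21 for Ighm, −0.41 for heavy V and −0.56 for kappa V sets. With 1 array on 1 side, these differences carry no test.

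**Figure D3:**
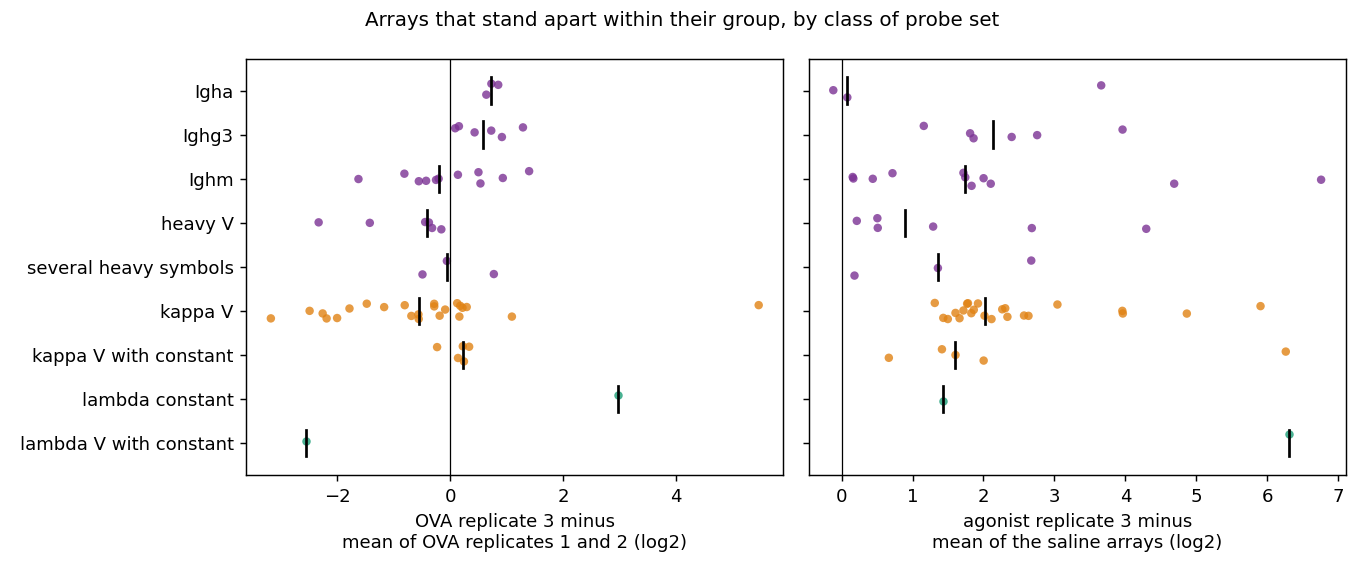
Difference of OVA array 3 from the mean of OVA arrays 1 and 2 (left, log2) and of agonist array 3 from the mean of the saline arrays (right, log2), by class of probe set; points are probe sets, coloured by chain, and bars are medians. On the left the medians are 0.73 for Igha and −0.56 for kappa V sets, and on the right 0.08 for Igha and 2.01 for kappa V sets.

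Other genes of antibody-producing cells were read from lists of markers. Of 7 tested plasma cell markers 2 rose in OVA lung and 0 fell. Jchain, which joins IgA and IgM into polymers, read 172, 150 and 159 in saline, 1833, 1342 and 1084 in OVA, and 127, 173 and 771 in agonist lung (log2 change 3.12 ± 0.61, adjusted p = 0.0262). Irf4, a transcription factor needed for plasma cells, read −3.26, −2.23 and 26.7 in saline and 196, 150 and 71.0 with OVA, which is at least 2.86-fold higher (adjusted p = 0.0372), with −20.1, 6.11 and 19.98 in agonist lung. Agonist array 3 was raised in Jchain and below the limit in Irf4. Only the OVA arrays exceeded the limit in Irf4, so this gene entered the test through the group where it was high. Its call was lost with no floor, with no filter, with the replicate block and in a fit of only the 6 arrays compared.

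The other plasma cell markers did not pass. Pou2af1, a coactivator of immunoglobulin promoters, had a log2 difference of 0.97 (adjusted p = 0.119), and Xbp1, which drives secretory capacity, 0.27 (adjusted p = 0.306). Sdc1, Prdm1 and Tnfrsf17 differed by −0.15, −0.09 and 0.28. The summed intensity of the 7 markers was 1431 to 1863 on the saline arrays, 2895 to 3725 on the OVA arrays and 1412 to 2625 on the agonist arrays.

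Of 13 tested B cell markers 2 rose and 0 fell, and at an unadjusted p under 0.05 5 were higher and 0 lower. The median log2 change was 0.23, against 0.28 for the plasma cell markers. The rises were Blnk, an adaptor of the B cell receptor, 2.16-fold (adjusted p = 0.0407), and Btk, a kinase of the same pathway that myeloid cells also hold, 1.61-fold (adjusted p = 0.0430). Cd72, a B cell coreceptor, and Fcer2a, the low-affinity IgE receptor, differed 2.04-fold and 1.43-fold (adjusted p = 0.0889 and 0.0613), with every OVA array above every saline array. Ms4a1, which encodes CD20, read 410, 402 and 312 in saline, 375, 397 and 425 in OVA and 332, 401 and 391 in agonist lung, with overlapping groups and a log2 difference of 0.10 ± 0.13 (adjusted p = 0.661). Cd79a and Cd79b, the signalling chains of the B cell receptor, differed by 0.18 and −0.35 (adjusted p = 0.834 and 0.577). The 16 B cell markers on the array summed to 2327 to 2868 in saline, 2672 to 3104 in OVA and 2167 to 3013 in agonist lung, and Cd22, Cr2 and Ebf1 were not tested, being at or below the limit.

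Markers of lymph node tissue, which lung samples can include, were few. Of 5 on the array 3 were tested and 0 passed limma's test, with 0 at an unadjusted p under 0.05. Glycam1, of the high vessels of lymph nodes, was below 0 on all 9 arrays. Cxcl13, a follicle chemokine, exceeded the limit only on OVA arrays 1 and 2, at 77.8 and 102. The list summed to 333 to 827 in saline, 439 to 750 in OVA and 228 to 715 in agonist lung. Of 7 tested T cell markers 0 passed limma's test, with 1, Thy1, at an unadjusted p under 0.05, and with sums of 744 to 796, 830 to 933 and 769 to 819, and Cd3e was below 0 on every array. Of 5 tested lung markers 2 fell in OVA lung, Ager 1.35-fold (adjusted p = 0.0233) and Sftpb, the surfactant protein B, 1.41-fold (adjusted p = 0.0371). Both calls were lost when any saline array, OVA array 1 or OVA array 2 was left out singly, and that of Sftpb also without agonist array 2 (highest adjusted p = 0.0875 and 0.118). The lung markers summed to 30720 to 37120 in saline, 25010 to 31400 in OVA and 34100 to 34510 in agonist lung. The part of other cells, or of the share of lung epithelium, in the immunoglobulin differences was not tested.

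Of 6 tested genes of early B lineage cells and receptor recombination 0 passed limma's test, with 1 higher and 1 lower at an unadjusted p under 0.05; Vpreb1, of the surrogate light chain, read 136, 177 and 155 in saline and −19.1, −5.56 and 94.6 in OVA lung, a log2 difference of −1.44 with values held at the detection limit (adjusted p = 0.0801 in the fit at the floor). Of 9 tested genes of class switching and germinal centres 1 rose, Apex1, a base excision repair enzyme (log2 change 0.52, adjusted p = 0.0269). Il4 and Il6 were not tested, lying below the limit on every array.

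Genes that fold and export secreted proteins differed upward in OVA lung in 18 of 21 tested cases, where 40% of all tested probe sets did so, with a median log2 change of 0.50. The test was passed by 4: Sec61b, of the translocation channel, 1.66-fold (adjusted p = 0.0261), Edem1, of degradation in the endoplasmic reticulum, at least 1.78-fold (adjusted p = 0.0377), the chaperone Hsp90b1 1.43-fold (adjusted p = 0.0417) and the disulfide isomerase Pdia3 1.40-fold (adjusted p = 0.0486). These genes serve every secretory cell. Of 8 tested genes of antibody transport and Fc receptors 2 rose. Pigr, the epithelial receptor that carries polymeric IgA and IgM into the airway, read 532, 524 and 513 in saline, 2113, 2403 and 1481 in OVA and 579, 697 and 1503 in agonist lung (3.75-fold, adjusted p = 0.0226). Fcgr2b, the inhibitory IgG receptor, rose from 38.7, 47.9 and 38.6 to 233, 247 and 172 (log2 change 2.37, or 2.23 held at the limit, adjusted p = 0.00965). Among these list genes 11 rose, and with each of the 9 arrays left out in turn Fcgr2b alone passed every time (highest adjusted p = 0.047). The other 10 (Jchain, Irf4, Blnk, Btk, Apex1, Sec61b, Edem1, Hsp90b1, Pdia3 and Pigr) each missed the threshold without saline array 1 and without saline array 2, among others, with a highest adjusted p from 0.0875 for Pigr to 0.153 for Pdia3.

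**Figure D4:**
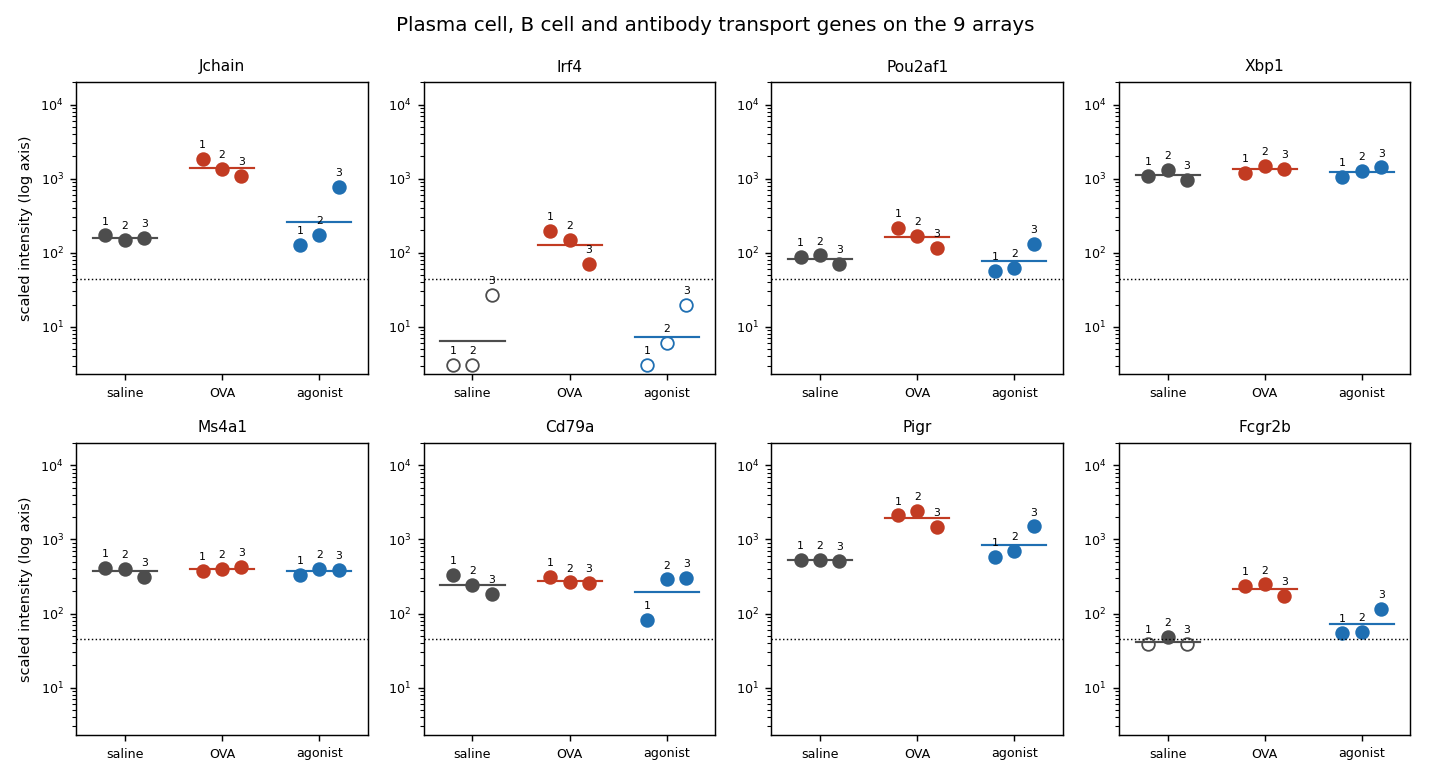
Scaled intensity (log axis) of Jchain, Irf4, Pou2af1 and Xbp1 (plasma cell markers), Ms4a1 and Cd79a (B cell markers), Pigr and Fcgr2b on the 9 arrays, numbered by replicate, with geometric means as bars and the detection limit of 44.7 dotted. Jchain and Pigr are high on all OVA arrays and on agonist array 3 (771 and 1503), while Ms4a1 lies between 312 and 425 on every array.

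The comparison of agonist with OVA asks whether the EP3 agonist altered these transcripts in challenged lung. Of the 59 tested probe sets 10 fell, 0 rose and 49 did not pass. Over all tested probe sets 2.75% passed, 1.5% lower and 1.25% higher. The median log2 change was −2.29 (−2.02 held at the limit), against 0.06 over all tested probe sets. Within replicate numbers 1, 2 and 3 it was −3.49, −3.07 and −0.26. This comparison shares the OVA arrays with the previous one, and all 10 probe sets that fell are among the 32 that rose with OVA.

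At an unadjusted p under 0.05, 45 members were lower and 1 higher in agonist lung, with 10.1% of all tested probe sets lower and 14.2% higher. The agonist arrays all lay below the OVA arrays in 33 members, against 12% of all. Agonist arrays 1 and 2 alone lay below every OVA array in 48 of 59 (18.3% of all). Agonist array 3 did so in 33 (26.6% of all). It lay within the OVA range in 16 (36.4% of all) and above every OVA array in 10 (37.1% of all). Among the 32 members above the limit on every saline array 5 fell, with a median of −2.03.

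The number of falls changed with every array left out, most of all with agonist array 3. Without it 40 of 58 tested members fell and 0 rose, where 6.71% of 7839 probe sets passed and 3.88% fell, and the median log2 change was −2.93. Of these 40, 31 are among the 32 that rose with OVA. Leaving out any other array gave 0 to 2 falls: 1, 1 and 2 without saline arrays 1, 2 and 3, 0, 0 and 2 without OVA arrays 1, 2 and 3, and 0 and 1 without agonist arrays 1 and 2. Over all tested probe sets, too, few calls in either direction were left in these fits, from 218 with all arrays. They numbered 24, 26 and 36 without saline arrays 1, 2 and 3, and 7, 10 and 130 without OVA arrays 1, 2 and 3. Without agonist arrays 1 and 2 they numbered 18 and 31. None of the 10 falls passed with each array left out in turn. Agonist array 3 was singled out by its high values in these same genes, so the 40 falls without it are no independent support.

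The 10 that fell were 2 Igha, 2 Ighg3 and 1 Ighm set, 1 set with several heavy symbols, 3 single kappa V sets and 1 mixed kappa set. Igha showed it on all agonist arrays. Probe set 100583_at was 2.65-fold lower in agonist than in OVA lung (log2 change −1.41 ± 0.29, adjusted p = 0.0491) and 161486_f_at 2.44-fold (−1.29 ± 0.21, or −1.13 held at the limit, adjusted p = 0.0380). Their changes within replicate number 3 were −1.80 and −1.82. Without agonist array 3 both passed, falling by 1.49 and 1.26 on the log2 scale (adjusted p = 0.0486 and 0.0375). With other arrays left out singly, most fits lost these calls. Probe set 100583_at passed in 1 such fit in all and missed in 8 (highest adjusted p = 0.146). Probe set 161486_f_at passed in 2 and missed in 7 (highest adjusted p = 0.13). Both calls were also lost with no filter, with the replicate block and in a fit of only the 6 arrays compared. That of 100583_at was lost with quantile normalization and with no floor as well. Igha set 97009_f_at, at least 2.59-fold lower with all agonist arrays below the limit, did not pass (adjusted p = 0.0589). It passed without agonist array 3 (adjusted p = 0.000186), where both remaining agonist values lie under the floor and show no spread.

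The kappa set 97566_f_at fell 5.50-fold (log2 change −2.46 ± 0.30, adjusted p = 0.0170), and every agonist array lay below every OVA array. The Ighg3 sets 93927_f_at and 97008_f_at fell by 3.19 and 2.84 on the log2 scale (adjusted p = 0.0444 and 0.0482). The Ighm set 101871_f_at fell by 3.28, or 2.67 held at the limit (adjusted p = 0.0421), and the heavy set 97575_f_at by 3.42, or 2.33 held at the limit (adjusted p = 0.0442). Each of these had its highest agonist value on agonist array 3.

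Among kappa V sets, Igkv4-70 (101718_f_at) fell 3.66-fold and Igkv4-68 (102076_at) 9.84-fold (adjusted p = 0.0481 and 0.0491). Igkv15-103 (101330_f_at) was at least 2.01-fold lower (adjusted p = 0.0438), with all agonist arrays below the limit. Only its OVA arrays exceeded the limit, so it entered the test through the group where it was high. Its call was lost with no floor, with the floor at the 40th percentile and with no filter. The call was also lost with the intensity trend and robust prior, with the replicate block and in a fit of only the 6 arrays compared. With 1 array left out, 101330_f_at passed in 1 fit, missed in 5 and could not be tested in 3. Other sets read above did not pass: 102156_f_at (Igkv6-23) differed by −1.27 (adjusted p = 0.122), 93583_s_at (Ighm) by −1.57 (adjusted p = 0.202) and 93086_at (mixed kappa) by −0.93 (adjusted p = 0.192). Without agonist array 3 these changed by −1.81, −2.29 and −1.38, and all 3 then passed (adjusted p = 0.00305, 0.0452 and 0.0248). That array was singled out by its high values in these genes, so these passes are no independent support.

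**Figure D5:**
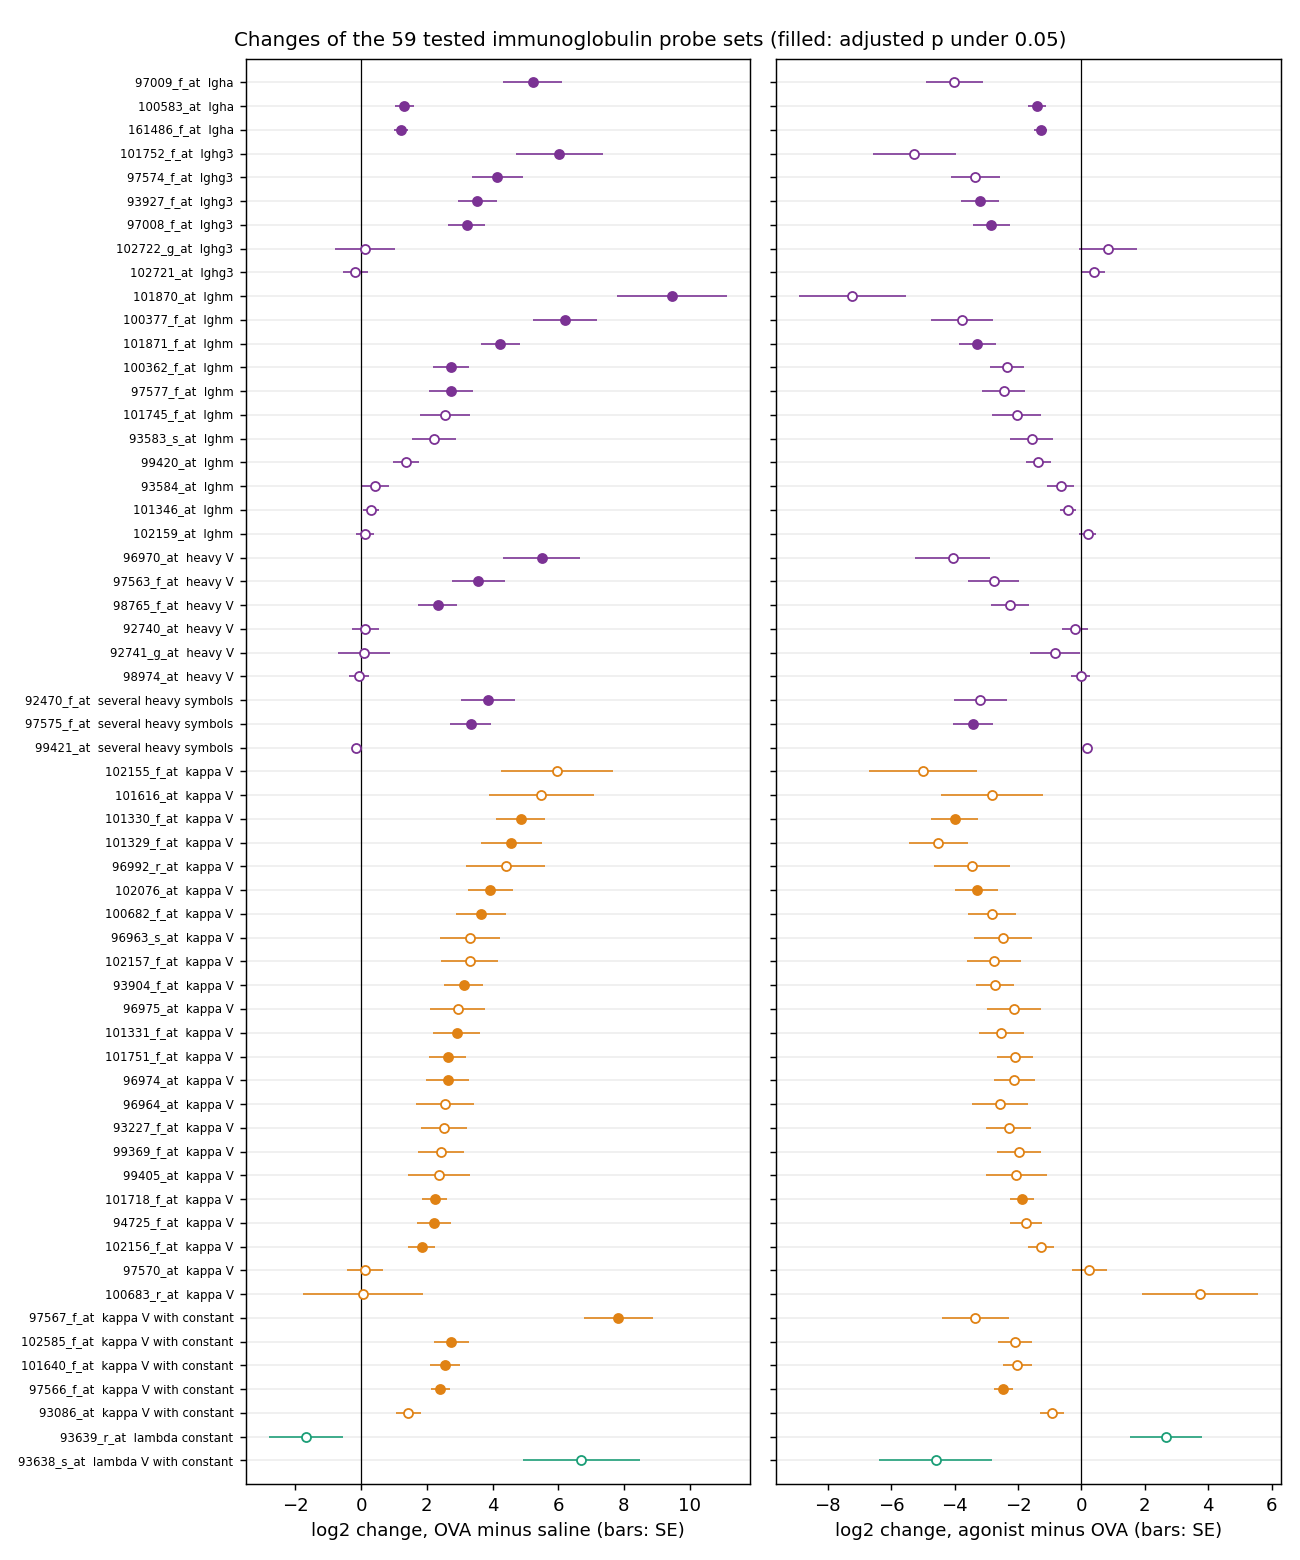
Log2 change of each of the 59 tested immunoglobulin probe sets between OVA and saline (left) and between agonist and OVA (right), grouped by class, with SE bars; filled points have a limma adjusted p under 0.05. On the left 32 points are filled, all above 0, and on the right 10, all below 0; both panels use the same OVA arrays.

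Partner genes gave fewer calls in this comparison. Jchain differed by −2.43 (adjusted p = 0.0705), and by −3.23 without agonist array 3 (adjusted p = 0.00163). Pigr differed by −1.21 (adjusted p = 0.0927), and by −1.63 without that array (adjusted p = 0.00934). Both genes had their highest agonist value on agonist array 3, so the values without it are no independent support. Fcgr2b fell 3.01-fold (adjusted p = 0.0444). Of 21 folding and secretion genes 20 differed downward, with a median log2 change of −0.37, against 0.06 over all tested probe sets. At an unadjusted p under 0.05, 11 were lower and 0 higher, with 10.1% and 14.2% of all tested probe sets. The OVA arrays used here are those in which 18 of these 21 genes differed upward from saline. By the adjusted p 1 fell, Manf, a protein induced by stress of the endoplasmic reticulum. It read 793, 700 and 562 in OVA and 245, 280 and 304 in agonist lung, 2.46-fold lower (adjusted p = 0.0364). Neither call held with each array left out: that of Manf was lost without saline array 1, OVA array 1 or 2, or agonist array 1 or 2 (highest adjusted p = 0.13), and that of Fcgr2b passed with agonist array 3 left out and with no other array left out (highest adjusted p = 0.155). Of 13 B cell and 7 plasma cell markers 0 passed limma's test, with 4 lower and 1 higher among the former and 3 lower and 1 higher among the latter at an unadjusted p under 0.05.

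The comparison of agonist with saline asks whether challenged and treated lung differed from unchallenged lung. By limma's test 0 of 59 members passed in either direction, where 0.0758% of all tested probe sets did, 0.0379% in each direction. At an unadjusted p under 0.05, 2 members were higher and 0 lower (3.62% and 4.09% of all). The median log2 difference was 0.51, from −0.37, −0.18 and 2.32 within replicate numbers 1, 2 and 3, and −0.17 without agonist array 3. Without that array 0 of 58 passed, with 1 higher and 1 lower at an unadjusted p under 0.05.

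On agonist arrays 1 and 2, 52 of 59 members lay within or below the saline range, as did 61.1% of all tested probe sets. A missing call does not show that these lungs had saline levels: saline itself varied, with saline array 3 the lowest of its group in 39 of 59 members against 34.3% of all tested probe sets. In 93927_f_at (Ighg3), for example, saline ran from 60.9 to 109 and agonist arrays 1 and 2 read 76.2 and 51.4.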

How the data were processed

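Total RNA of 9 lung samples was measured on Affymetrix arrays. The deposited values are linear intensities, 1 per probe set and array; 17.7% are below 0, so some signal had been subtracted. How the authors made them (scanner software, summarization, scaling) is not given in the sources used here. Trimmed means (2%) of the deposited intensity ran from 138.7 to 241.2, and each array was multiplied by 0.741 to 1.29 to reach their mean. Values under 3.10 (20th percentile) were raised to it and log2 was taken. The 66 controls among 12488 probe sets were left out, and those with at least 3 of 9 arrays above 44.7 (40th percentile) were tested.

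The groups of 3 arrays were compared in 1 limma 3.58.1 fit (lmFit and eBayes, R 4.3.3; 6 residual and 1.69 prior degrees of freedom), two-sided, with Benjamini-Hochberg adjustment over 7920 probe sets and a threshold of 0.05. All adjusted p-values are from this test. Errors are standard errors. "At least" folds set the brighter group's geometric mean against the detection limit. The limma fit was tested on simulated data, to which neither the floor nor the filter was applied, so those steps were not tested. Figures were drawn with matplotlib 3.10.9. The number of arrays limits the precision.

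Members follow the symbol rule of the opening; RefSeq's mouse genes (GRCm38.p6), consulted for names alone, held all 34 symbols. The members and the 9 gene lists were chosen with earlier results of these data known. Named are every set with 1 constant region symbol, and in each class up to 6 further tested sets with the largest change between OVA and saline and up to 3 between agonist and OVA, passing ones ahead; from each list up to 4 genes with the largest change. Further sets and genes were named after their values were seen, for contrast. List genes use their brightest probe set. Alternatives were other scalings, floors, filters and thresholds, array weights, a robust prior with an intensity trend, members with 1 symbol, a fit of only the 6 arrays compared, a block for the replicate number, and each array left out.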

Additional observations from a re-analysis of the deposited data

How the results depend on the processing

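Under every alternative run, the median change of the members moved by less than 0.77 (log2), the SD of array medians within groups. Agonist array 3, at 1.83 against −0.17 and −0.16 on the other agonist arrays, widens this SD. The SD therefore cannot judge the shift on leaving that array out. The median change kept its direction in OVA against saline and in agonist against OVA. In agonist against saline it went from 0.51 to −0.17 without agonist array 3. The counts of calls moved further. For OVA against saline, the 32 rises became 17 with no filter on dim probe sets (more probe sets tested) and 1 with a block for the replicate number (46 higher at an unadjusted p under 0.05), and ran from 1 to 44 with 1 array left out. For agonist against OVA, the 10 falls became 18 with the floor at the 40th percentile, 17 with the filter at the 60th percentile, 30 with array weights, 30 at an adjusted p of 0.1, 1 with no filter, 0 in a fit of only the 6 arrays compared and 0 with the replicate block (each with 40 lower at an unadjusted p under 0.05), and ran from 0 to 40 with 1 array left out. Calls over all probe sets of a fit moved as well. Between OVA and saline, 752 became 682 with no filter. Between agonist and OVA, 218 became 361 with the floor at the 40th percentile, 445 with the filter at the 60th and 498 with array weights. They became 197 with no filter and 18 in the fit of only the 6 arrays compared. The cause of these moves was not tested. For agonist against saline every alternative gave 0; the fit as reported had 2 higher and 0 lower at an unadjusted p under 0.05. The replicate numbers do not pair the samples by the data: the correlation of same-numbered arrays' deviations from their group means was 0.17, 0.11 and 0.04 for OVA and saline and −0.07, 0.01 and −0.05 for agonist and OVA. Under the block 50 of 7920 probe sets passed between OVA and saline and 14 between agonist and OVA. No named probe set or gene reversed a call; for list genes and further members these alternatives were added after seeing the data. The unknown summarization and background step, and cross-hybridisation between V segments, limit what single probe sets show.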

Other observations

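Several probe sets that carry an antibody locus symbol or an older antibody gene name fall outside the symbol rule. They were looked at after the members' values were seen. The entry of probe set 101633_at joins the locus symbol Igk to Asb2, which is no antibody gene. Which of the genes this set reads was not tested. It read 103, 140 and 100.4 in saline, 1051, 1064 and 1810 in OVA, and 102, 59.01 and 95.9 in agonist lung. OVA stood clear of both other groups, 11.2-fold above saline (limma adjusted p = 0.00259), and agonist lung was 15.2-fold below OVA (adjusted p = 0.00107). Agonist array 3 did not stand apart in 101633_at, whereas all 28 tested kappa members were higher there than on both other agonist arrays. Probe set 101332_at, Igk alone, read 26.6, 31.3 and 29.2 in saline, 52.0, 54.9 and 60.8 in OVA and 33.8, 25.3 and 36.9 in agonist lung (log2 change 0.94, or 0.32 held at the limit, adjusted p = 0.0174). Only the OVA arrays exceeded the limit in 101332_at, so it entered the test through the group where it was high. That call was lost with the floor at the 40th percentile, with the intensity trend and robust prior, and with the replicate block. With any OVA array left out it could not be tested. Probe set 101641_at, also Igk, exceeded the limit on OVA array 3, at 444, and on agonist array 3, at 50.2. Probe set 97720_at, under the older name Igh-VS107, read 327, 102 and 34.3 in OVA lung and 126 on agonist array 3, without passing (adjusted p = 0.0843).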
